A study of Mus musculus with 4 samples.

Results

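Exosomes are small vesicles that form inside late endosomes, which are then called multivesicular bodies, and leave the cell when such a body fuses with the plasma membrane. Described here are 10 genes whose products build or release these vesicles: Hgs, Tsg101, Pdcd6ip, Vps4a, Vps4b, Sdcbp, Smpd3, Rab27a, Rab27b and Rab11a. They were chosen by gene name from a table of 54532 genes, because pancreatic beta cells export microRNA of the miR-29 family in exosomes, and they take up 11 entries of it since Hgs is listed under 2 identifiers. Of the 10 genes, 8 had at least 1 FPKM (fragments per kilobase, a level corrected for gene length and library depth) in 2 or more libraries and entered the tests, while Rab27b and Hgs stayed below that level.

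Pancreatic islets came from 2 groups of male C57BL/6 mice aged 10 to 12 weeks. The transgenic group overexpressed the microRNAs miR-29a and miR-29b-1 from a transgene meant for pancreatic beta cells, and the other group was wild type. Each group has 2 libraries, numbered 1 and 2 in the labels, called here transgenic 1, transgenic 2, wild type 1 and wild type 2. The sources used here give neither the promoter of the transgene nor its founder lines, and do not say whether mice were pooled or each library had mice of its own. All p-values therefore speak to library-to-library spread alone, some or all of which may be technical.

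Gene reads numbered 23654135 in transgenic 1 and 21670854 in transgenic 2, against 23730364 in wild type 1 and 27080907 in wild type 2. The islet hormone genes Ins2, Gcg and Sst were abundant in every library. These libraries do not record mature microRNA, and the loci Mir29a and Mir29b-1 held 0 reads in both transgenic libraries, against 3 reads of Mir29a in wild type 2 and none elsewhere, so the genotype could not be checked from the table. Libraries of the same number resembled each other. The 8 acinar markers, which mark the digestive enzyme cells around islets, took 0.743% of reads in transgenic 1 (95% exact binomial interval 0.740% to 0.747%) and 0.172% in transgenic 2 (0.170% to 0.174%), against 0.499% in wild type 1 (0.496% to 0.502%) and 0.0969% in wild type 2 (0.0957% to 0.0980%). The 9 beta cell markers took 19.8% in transgenic 1 (interval 19.8% to 19.9%) and 32.8% in transgenic 2 (32.8% to 32.8%), against 27.6% in wild type 1 (27.6% to 27.6%) and 34.2% in wild type 2 (34.2% to 34.2%). None of the acinar or beta cell markers was at 0. Within each number the transgenic library had the larger acinar share, with all 8 markers higher, and the smaller summed beta cell share. That sum is mostly Ins2, and of the 9 beta cell markers 4 were lower and 2, Mafa and Nkx6-1, were higher in the transgenic library of both numbers. Number 2 had the smaller acinar and larger beta cell share in both genotypes. In RNA of whole islets, fewer cells of a type and less RNA per cell cannot be told apart.

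Exosomes can form by more than one route. In the ESCRT route, protein complexes gather ubiquitin-marked cargo on the endosome and bend the membrane inward, and an ATPase then takes the last complex apart. Other vesicles bud with the help of syntenin and ALIX, or where the lipid ceramide is made in the membrane, and small GTPases of the Rab family move and dock the finished body at the plasma membrane. In beta cells some of the same proteins also serve insulin granules, above all Rab27a.

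Ordered by mean FPKM over the 4 libraries, Rab27a stood highest at 56.9 ± 7.99 (SD, n = 4), above 95.9% of the genes compared. Rab11a at 29.9 ± 4.29 and Sdcbp at 27.7 ± 2.49 came next, followed by Tsg101 at 21.2 ± 0.865, Vps4a at 18.2 ± 0.916 and Pdcd6ip at 16.0 ± 2.77. Vps4b had 9.77 ± 0.763 FPKM and Smpd3 4.84 ± 0.787 FPKM, which is above 46.2% of the genes compared. The ranges of neighbours in this order overlapped for Rab11a and Sdcbp, which kept the order in only 2 of 4 libraries, and for Vps4a and Pdcd6ip, which kept it in all 4. The remaining neighbours did not overlap. Rab27b at 0.114 ± 0.00879 FPKM was 42.5-fold below Smpd3, and Hgs was almost without reads.

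**Figure D1:**
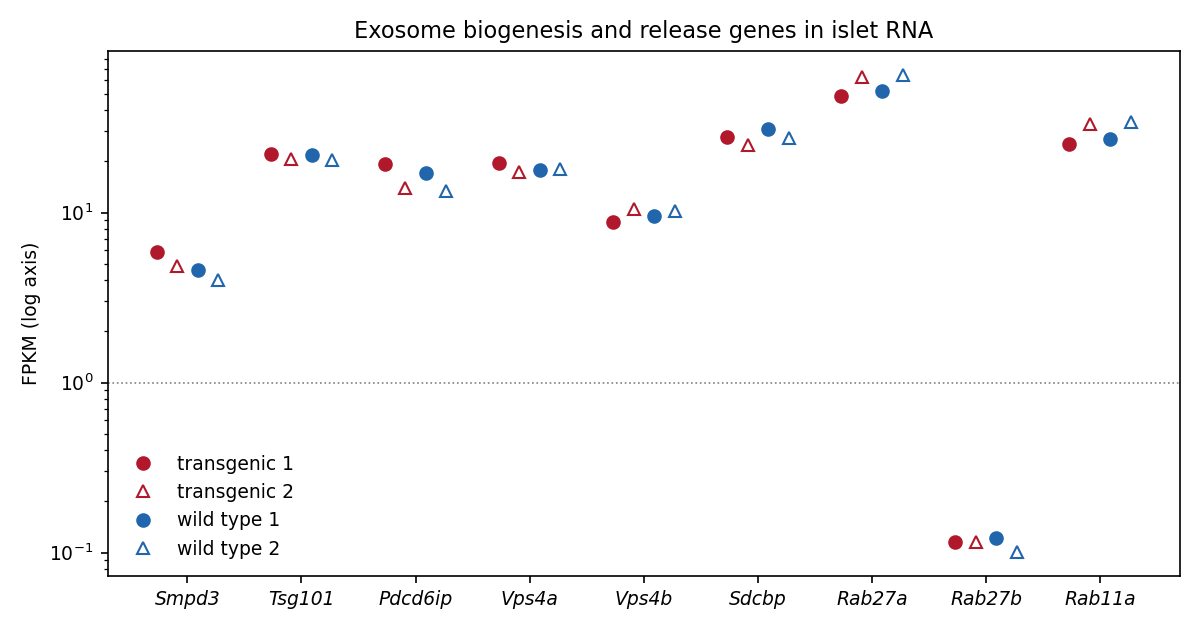
FPKM, on a log axis, of 9 of the genes in transgenic 1 and 2 (red) and wild type 1 and 2 (blue), with filled circles for number 1, open triangles for number 2, and a dotted line at 1 FPKM. Rab27a lies highest, and Rab27b lies alone below the line. The circles and triangles lie further apart than the colours most clearly for Rab27a, Rab11a and Pdcd6ip. The fitted difference between numbers was larger in size than that between genotypes for every gene above the line except Smpd3. Hgs, at or near 0, is not drawn.

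The microRNAs of the transgene are shown because a direct target often, though not always, carries a match to their seed. A microRNA pairs with a messenger RNA mainly through its seed, bases 2 to 8, given here in capitals. Mature sequences are from RefSeq on GRCm38.p6, where Mir29a gives chr6:31062673-31062694 and Mir29b-1 gives chr6:31063025-31063047, both on the minus strand.
miR-29a-3p: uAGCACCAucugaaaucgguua
miR-29b-3p: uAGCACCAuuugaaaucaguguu
Both share 1 seed, so the same 7 bases, TGGTGCT on the messenger strand, pair with either. The longest annotated 3′ UTR of each gene was searched for this motif in GENCODE M21 on GRCm38. Of the 10 genes, 2 held it, each once. The sites are shown 5′ to 3′ on the gene's strand with the match in capitals.
Smpd3, chr8:106252596-106252617 (minus strand): ggattttccctttaTGGTGCTg
Vps4b, chr1:106770164-106770185 (minus strand): catgctggtagacaTGGTGCTg
The match in Smpd3 starts at base 2656 of a 3′ UTR of 2711 bases, and that in Vps4b at base 2276 of 3017. Neither is followed by an A, which lengthens a canonical site. The motif stood in 20% of these genes, in 17.2% of 64 other exosome pathway genes with a 3′ UTR and in 15.5% of 10684 genes compared. Long 3′ UTRs hold it more often: of the 500 genes nearest in 3′ UTR length to Smpd3, 25.4% had a match, and of those nearest to Vps4b, 27.4%. A match describes the sequence and is not evidence of a functional site, and no match says only that these letters are not in the searched 3′ UTR.

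The transgenic islets were compared with wild-type islets by limma on log2(FPKM + 1), with Benjamini-Hochberg adjustment over 12716 genes. None of the 8 genes compared passed an adjusted p of 0.05, with genotype as the only term none had an unadjusted p under 0.05 either, and voom in limma on the recovered reads called none. The same limma test called 0% of all genes compared, with 83 at an unadjusted p under 0.05. Their median log2 fold change was -0.00, against 0.01 over all genes. The smallest adjusted p among the 8 was 1.00, and each fold change below is given with its standard error and its 95% interval, on the log2(FPKM + 1) scale.

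Smpd3 encodes neutral sphingomyelinase 2, the enzyme that splits sphingomyelin into ceramide and phosphocholine and drives ceramide-dependent budding. It had 5.89 FPKM in transgenic 1 and 4.86 FPKM in transgenic 2, against 4.57 FPKM in wild type 1 and 4.02 FPKM in wild type 2. Both transgenic libraries lay above both wild-type libraries, and Smpd3 was the only 1 of the 8 genes whose groups did not overlap. Of all genes compared, 12.2% showed no overlap with the transgenic group higher and 9.03% with the transgenic group lower, and none of the 8 genes was in the second class. The log2 fold change of Smpd3 was 0.27 ± 0.15 (interval -0.13 to 0.66, unadjusted p = 0.142 and adjusted p = 1.00 in limma), and within number 1 it was 0.31 and within number 2 it was 0.22. With library number as a further term, its unadjusted p in limma was 0.0209 (adjusted p = 0.461), in a fit where 10.7% of all genes compared had an unadjusted p under 0.05. The acinar marker share moved the same way within each number, as given above, and its part in the difference was not tested. Exons of Smpd3 have a GC content of 55.8%, and the fold change on the reads, with library number as a term, was 0.32 ± 0.11, against 0.18 ± 0.11 after correction of each library for a trend with GC content.

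In the ESCRT route, Hgs encodes HRS, the part of ESCRT-0 that first binds ubiquitin-marked cargo. Its entry ENSMUSG00000025793 held 3 reads in transgenic 1 and 1 read in transgenic 2, against 0 reads in wild type 1 and 0 reads in wild type 2. The other entry, ENSMUSG00000116045, held 0 reads in all 4 libraries. By counting error alone, 0 observed reads are compatible with as many as 3 in a library. Both groups lie at or under that limit, so no fold change is given. The annotation places the entries on top of each other on chromosome 11 of GRCm38, from 120467635 to 120483979 and from 120467635 to 120483984 on the plus strand. The first has 2980 exon bases, of which 97.2% also belong to the other, which leaves 83 bases alone. The second has 2908 exon bases, of which 99.6% belong to the first, which leaves 11 bases alone. In the whole table, of 176 protein-coding genes with at least 95% of their exon bases shared with another gene on the same strand, 1 gene (0.568%) reached 1 FPKM in 2 libraries. Of 20953 protein-coding genes with under 5% shared, 10469 did. The sources used here do not say how reads in shared exons were treated, and the level of Hgs in islets cannot be read from this table.

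**Figure D2:**
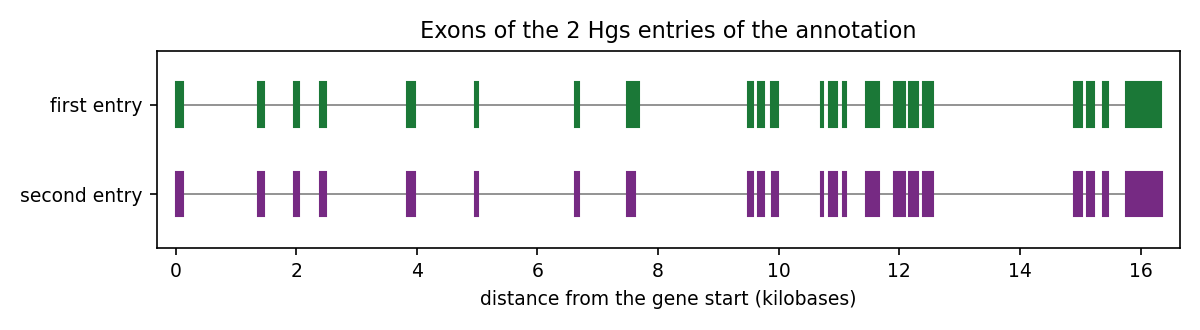
Exons (blocks) of both Hgs entries of the annotation, by distance from the gene start in kilobases, with ENSMUSG00000025793 above and ENSMUSG00000116045 below. The blocks coincide along nearly the whole gene, with 97.2% of the exon bases of the first and 99.6% of those of the second in the other.

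Tsg101, a part of ESCRT-I that binds ubiquitin-marked cargo and hands it on, varied least of the 8 relative to its level. It had 22.1 FPKM in transgenic 1 and 20.7 FPKM in transgenic 2, against 21.9 FPKM in wild type 1 and 20.3 FPKM in wild type 2. The groups overlapped, and the log2 fold change was 0.02 ± 0.14 (interval -0.36 to 0.41), with 0.01 within number 1 and 0.03 within number 2.

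Vps4a and Vps4b encode the paired ATPases that pull ESCRT-III apart after a vesicle has been cut off. Vps4a had 19.5 FPKM in transgenic 1 and 17.3 FPKM in transgenic 2, against 17.8 FPKM in wild type 1 and 18.1 FPKM in wild type 2. Both wild-type values lie between the transgenic ones. Its fold change on the log2 scale was 0.03 ± 0.14 (interval -0.36 to 0.42), and it differed in sign between number 1 (0.12) and number 2 (-0.06). Vps4b, the other carrier of a seed match, had 8.83 FPKM in transgenic 1 and 10.5 FPKM in transgenic 2, against 9.50 FPKM in wild type 1 and 10.2 FPKM in wild type 2. Again the wild-type values lie inside the transgenic range. Its log2 fold change was -0.03 ± 0.15 (interval -0.43 to 0.37), with -0.09 within number 1 and 0.04 within number 2. Of the summed FPKM of the pair, Vps4b made up 31.2% in transgenic 1 and 37.8% in transgenic 2, against 34.8% in wild type 1 and 36.1% in wild type 2. On reads, which also count the greater length of Vps4b (8905 bases against 2522 bases for Vps4a), its mean share was 65.4%, against 35.0% on FPKM.

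Pdcd6ip encodes ALIX, which links syntenin to ESCRT-III. It had 19.3 FPKM in transgenic 1 and 13.9 FPKM in transgenic 2, against 17.1 FPKM in wild type 1 and 13.5 FPKM in wild type 2. The groups overlapped widely, since number 1 was high in both genotypes. The resulting log2 fold change was 0.11 ± 0.23 (interval -0.50 to 0.71), with 0.17 within number 1 and 0.05 within number 2.

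Sdcbp encodes syntenin, the adaptor that joins the tails of syndecans to ALIX. It had 27.6 FPKM in transgenic 1 and 24.8 FPKM in transgenic 2, against 30.9 FPKM in wild type 1 and 27.3 FPKM in wild type 2. Transgenic 1 stood just above wild type 2, so the groups overlapped, although the transgenic library was the lower of each number. The log2 fold change was -0.14 ± 0.16 (interval -0.57 to 0.28), with -0.15 within number 1 and -0.13 within number 2.

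Rab27a encodes the GTPase that docks multivesicular bodies at the plasma membrane in human cell lines and insulin granules in beta cells. It had 48.4 FPKM in transgenic 1 and 62.6 FPKM in transgenic 2, against 51.8 FPKM in wild type 1 and 64.7 FPKM in wild type 2. Number 2 was high in both genotypes, and the genotypes overlapped. A log2 fold change of -0.07 ± 0.22 (interval -0.66 to 0.52) was estimated, with -0.09 within number 1 and -0.05 within number 2.

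Rab27b is the close relative of Rab27a, also tied to exosome release in human cell lines. It held 32 reads in transgenic 1 and 26 reads in transgenic 2, against 31 reads in wild type 1 and 28 reads in wild type 2, or 0.101 to 0.122 FPKM. At this low level the libraries hardly differed, and no test was made. Rab27b made up 0.239% of the summed FPKM of both Rab27 genes in transgenic 1 and 0.185% in transgenic 2, against 0.234% in wild type 1 and 0.156% in wild type 2. In islet RNA nearly all Rab27 messenger was thus Rab27a, and on reads the mean share of Rab27b was 0.558%, against 0.204% on FPKM.

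Rab11a, a GTPase of recycling endosomes that has been tied to exosome release in some cell lines, followed the pattern of Rab27a. It had 25.4 FPKM in transgenic 1 and 32.9 FPKM in transgenic 2, against 27.1 FPKM in wild type 1 and 34.1 FPKM in wild type 2. The log2 fold change was -0.07 ± 0.22 (interval -0.65 to 0.51), with -0.09 within number 1 and -0.05 within number 2.

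Across the 8 genes, 3 (Smpd3, Pdcd6ip and Tsg101) were higher in the transgenic library of both numbers, where 33.5% of all genes compared were. Another 3 (Rab27a, Rab11a and Sdcbp) were lower in the transgenic library of both numbers, where 27.4% of all genes compared were. The intervals come from the fit with genotype as the only term and were widest for Pdcd6ip, Rab27a and Rab11a. These 3 genes also differed most between the library numbers, which that fit leaves out. Differences that lie inside the intervals are not excluded.

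**Figure D3:**
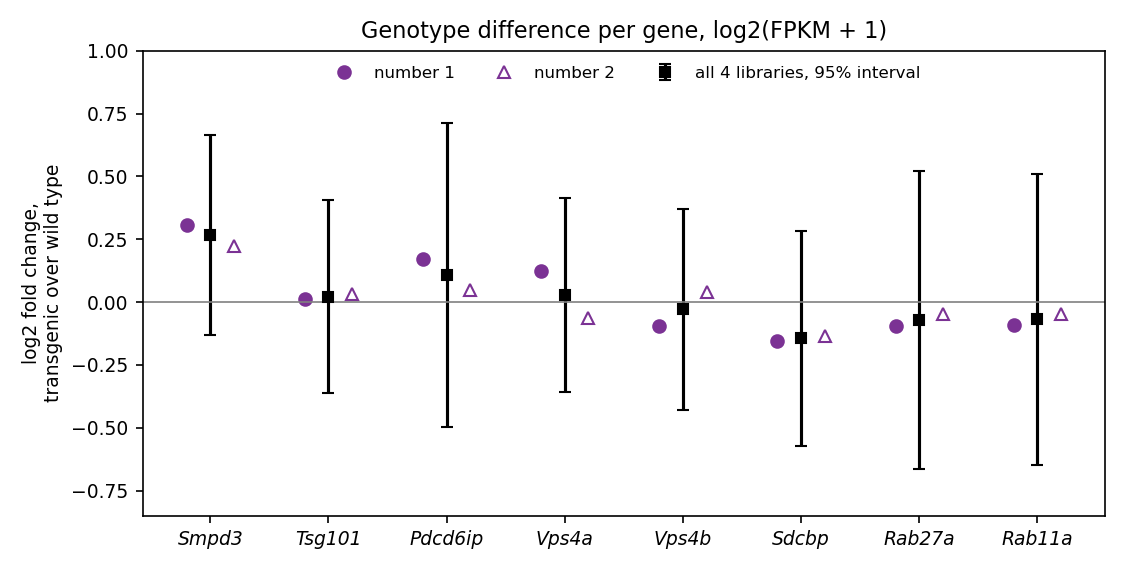
Log2 fold change of the 8 genes compared, transgenic over wild type, on the log2(FPKM + 1) scale. Squares with bars are the value over all 4 libraries with its 95% interval, circles the value within number 1 and open triangles that within number 2. Every interval includes 0, and Smpd3 at 0.27 lies furthest from it.

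The calls among these genes came from the library number. In a limma fit with genotype and number as terms, with Benjamini-Hochberg adjustment over 12716 genes, Rab27a and Rab11a were higher and Pdcd6ip was lower in number 2 than in number 1. Number 2 was called higher for 13.4% and lower for 14.1% of all genes compared, so 2 and 1 of 8 are read against those shares. What the number stands for is not given in the labels.

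Rab27a averaged 63.7 FPKM in number 2 and 50.1 FPKM in number 1, a log2 difference of 0.34 ± 0.08 (adjusted p = 0.0370), and it was 0.36 in the transgenic and 0.32 in the wild-type libraries. Rab11a averaged 33.5 FPKM in number 2 and 26.2 FPKM in number 1, with a log2 difference of 0.34 ± 0.08 (adjusted p = 0.0348), 0.36 in the transgenic and 0.32 in the wild-type libraries. Pdcd6ip averaged 13.7 FPKM in number 2 and 18.2 FPKM in number 1, with a log2 difference of -0.38 ± 0.08 (adjusted p = 0.0301), -0.45 in the transgenic and -0.32 in the wild-type libraries. Each difference thus had the same sign in both genotypes. Number 2 had the smaller acinar and the larger beta cell marker share, as given above. The 2 delta cell markers took 0.331% of reads in transgenic 2 and 0.297% in wild type 2, against 0.222% in transgenic 1 and 0.193% in wild type 1. The 3 endothelial markers took 0.0136% in transgenic 2 and 0.0125% in wild type 2, against 0.0196% in transgenic 1 and 0.0172% in wild type 1. Of these 3 markers, 2 were lower in number 2 of both genotypes. Alpha, duct and macrophage marker shares were also smaller in number 2 of both genotypes, and the stellate and pericyte share was larger. Single markers were less uniform. In number 2 of both genotypes 1 of 3 duct markers was lower, and 2 of 3 stellate and pericyte markers were higher. Of 3 macrophage markers 2 were lower and 1 was higher. The binomial intervals of the numbers overlapped for the macrophage share in wild type and for the stellate and pericyte share in the transgenic libraries. The alpha share was smaller although 3 of its 4 markers had higher FPKM in number 2 of both genotypes. The part of these shares in the 3 differences was not tested.

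The fit has 1 residual degree of freedom per gene, and all 3 calls ended when genes of low level were kept in it (adjusted p = 0.0836 for Rab27a, 0.0780 for Rab11a and 0.0818 for Pdcd6ip). In voom on the reads all 3 were called, but there 21.6% of all genes compared were called higher and 22% lower in number 2. After removal of the GC curve, a setting chosen after seeing the data, 20.7% were called higher and 23.7% lower, the difference of Rab11a was 0.20 (adjusted p = 0.0491) and Sdcbp was also called lower in number 2, at -0.31 (adjusted p = 0.00134).

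The other 5 genes were not called in limma. Vps4b had a log2 difference of 0.16 (adjusted p = 0.186), Sdcbp -0.16 (adjusted p = 0.176) and Smpd3 -0.19 (adjusted p = 0.127). Tsg101 at -0.09 (adjusted p = 0.385) and Vps4a at -0.07 (adjusted p = 0.593) were closest to 0, and only Vps4a differed in sign between the transgenic (-0.16) and wild-type (0.03) libraries.

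**Figure D4:**
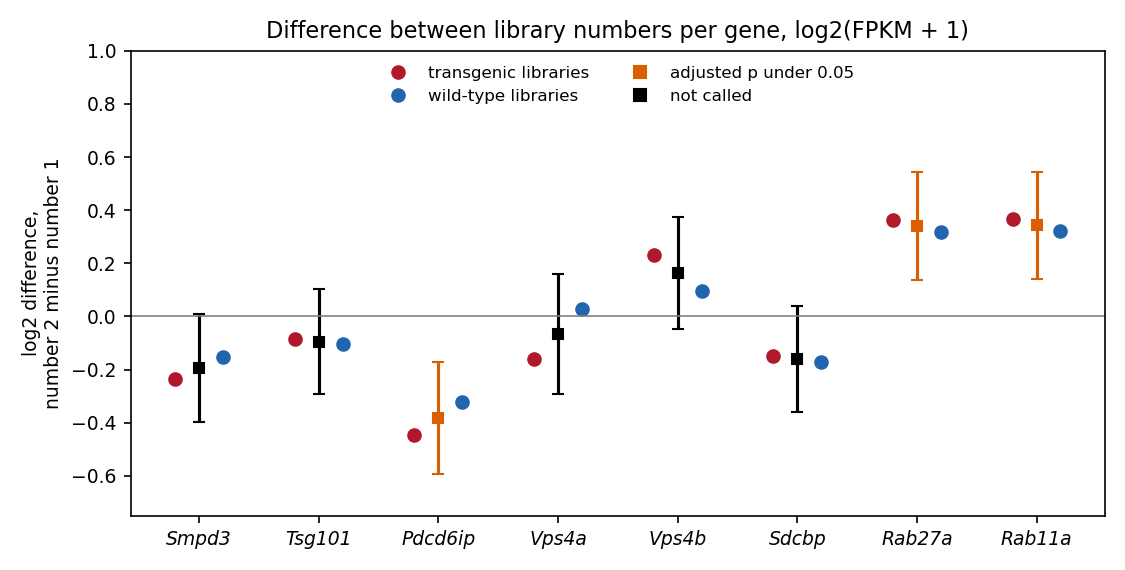
Log2 difference of the 8 genes compared, number 2 minus number 1, on the log2(FPKM + 1) scale. Squares with bars are the fitted value with its 95% interval (orange where the adjusted p was under 0.05), red points the transgenic and blue points the wild-type libraries. Rab27a and Rab11a lie together at 0.34 and Pdcd6ip at -0.38, with both genotypes on the same side.

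The wider exosome pathway was followed in 68 other genes, of which 58 entered the tests. In limma none was called between genotypes with Benjamini-Hochberg adjustment over 12716 genes, with genotype as the only term none had an unadjusted p under 0.05, and voom with that term alone called none. Their median log2 fold change was 0.02, against 0.01 over all genes, and they ranged from -0.23 to 0.40. The groups did not overlap for 8 genes with the transgenic libraries higher and for 7 with them lower, beside 12.2% and 9.03% of all genes compared. In both numbers the transgenic library was higher for 17 and lower for 20, beside 33.5% and 27.4% of all genes compared.

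Among 10 genes of ESCRT-0 and ESCRT-I, 9 were compared and their median was 0.03. The smallest p belonged to Vps37d, an ESCRT-I subunit, with 7.08 FPKM in transgenic 1 and 9.12 FPKM in transgenic 2, against 5.29 FPKM in wild type 1 and 7.72 FPKM in wild type 2. Its groups overlapped, and the log2 fold change was 0.29 ± 0.23. Stam, which pairs with HRS in ESCRT-0, followed at -0.14 ± 0.13. Vps28, an ESCRT-I subunit that binds Tsg101, had the highest level of the group, between 22.3 and 28.4 FPKM, and Mvb12b the lowest, between 0.465 and 0.772 FPKM.

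Of 3 ESCRT-II genes, Snf8 had a log2 fold change of 0.13 ± 0.15 and Vps36 one of -0.13 ± 0.17. The third, Vps25, lay between 0.235 and 0.464 FPKM, and 67.2% of its exon bases are shared with another gene of the same strand. Of 232 protein-coding genes with 50% to under 95% shared, 34 (14.7%) reached 1 FPKM in 2 libraries. The level of Vps25 is thus also in doubt, though it shares less of its exons than Hgs. The 12 genes of ESCRT-III and its regulators, which form the filament that cuts the vesicle off, were all compared and had a median of 0.02. Chmp4b, the main filament subunit, had 62.0 FPKM in transgenic 1 and 64.5 FPKM in transgenic 2, against 52.0 FPKM in wild type 1 and 60.5 FPKM in wild type 2. Its groups did not overlap, and the log2 fold change was 0.17 ± 0.17. Chmp6, the lowest of the group at 4.53 to 5.49 FPKM, was at 0.11 ± 0.13.

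In the syndecan and syntenin route 5 of 7 genes were compared, with a median of 0.13. Arf6, a GTPase that with phospholipase D2 governs syntenin vesicles in human cell lines, had 26.8 FPKM in transgenic 1 and 29.1 FPKM in transgenic 2, against 20.1 FPKM in wild type 1 and 24.3 FPKM in wild type 2. The transgenic libraries lay above the wild-type ones, and the log2 fold change was 0.32 ± 0.17. Sdc2, a syndecan, had 11.9 FPKM in transgenic 1 and 12.7 FPKM in transgenic 2, against 15.3 FPKM in wild type 1 and 13.8 FPKM in wild type 2. Here the transgenic libraries lay below the wild-type ones, at -0.23 ± 0.14. Pld2, which encodes that phospholipase, stayed at or below 0.282 FPKM.

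All 7 sphingomyelin and ceramide enzymes beside Smpd3 were compared, with a median of 0.01. Asah2, a ceramidase that removes ceramide, was at -0.12 ± 0.13, and Smpd4, a further neutral sphingomyelinase and the lowest of them at 1.83 to 3.13 FPKM, was at 0.16 ± 0.23. Asah1, the lysosomal ceramidase, was the highest, at 53.3 to 79.8 FPKM.

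Of 9 Rab27 effectors, proteins that bind the active GTPase, 5 were compared, with a median of -0.08. Sytl4, granuphilin of the insulin granule, was by far the highest. It had 58.8 FPKM in transgenic 1 and 86.5 FPKM in transgenic 2, against 58.6 FPKM in wild type 1 and 96.9 FPKM in wild type 2, which separates the numbers and not the genotypes. Sytl1 had 14.3 FPKM in transgenic 1 and 8.71 FPKM in transgenic 2, against 10.8 FPKM in wild type 1 and 6.31 FPKM in wild type 2. Its log2 fold change was 0.40 ± 0.34 (adjusted p = 1.00 in limma), with 0.38 within number 1 and 0.41 within number 2. Exph5 was at -0.09 ± 0.12, and Sytl2 was the lowest effector, at 0.135 to 0.382 FPKM.

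Among 12 other GTPases and regulators of exosome release, 10 were compared, with a median of 0.09. Tbc1d10a, an activating protein that switches Rab27a and Rab35 off, had 10.3 FPKM in transgenic 1 and 9.11 FPKM in transgenic 2, against 7.71 FPKM in wild type 1 and 7.45 FPKM in wild type 2. It did not overlap between genotypes, and at 0.32 ± 0.13 it had the smallest unadjusted p (0.0704) of the 58 genes. Its relative Tbc1d10b was at 0.22 ± 0.14, also without overlap, and Tbc1d10c was the lowest of the group, at 0.167 to 0.375 FPKM. Rab7, the late endosome GTPase, was the highest, at 96.1 to 117 FPKM.

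The 4 fusion proteins of exosome release had a median of -0.09. Vamp7 was at -0.22 ± 0.17 and Snap23 at -0.12 ± 0.16, and Ykt6 was the highest, reaching 25.8 FPKM. The 4 proteins reported to load microRNA into exosomes had a median of -0.07. Syncrip was at -0.11 ± 0.12 and Ybx1 at 0.13 ± 0.17, neither overlapping between genotypes and with opposite signs, and Hnrnpa2b1 was the highest, at 75.8 to 85.4 FPKM.

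**Figure D5:**
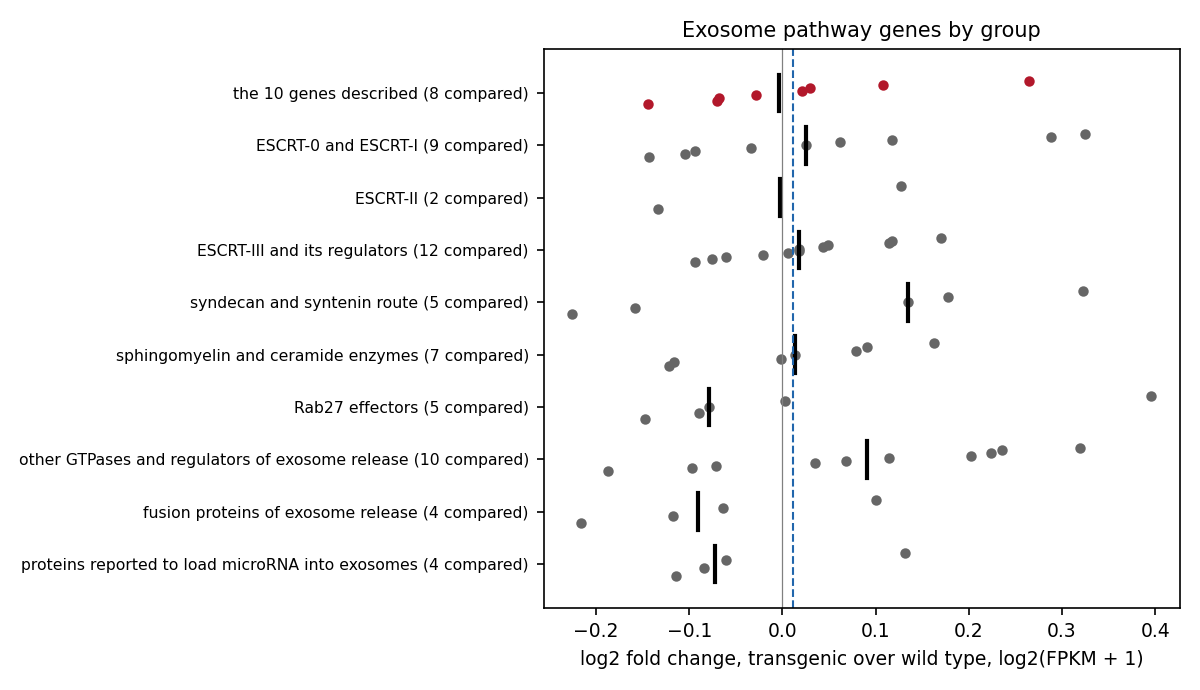
Log2 fold change, transgenic over wild type on the log2(FPKM + 1) scale, of each gene compared, by group, with the 10 genes described in red at the top. Black bars are group medians, from -0.09 to 0.13, and the dashed line is the median of all genes, 0.01.

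Between the numbers, 10 of the 58 genes were called higher and 6 lower in number 2 by limma, against 13.4% and 14.1% of all genes compared. Called higher were the Rab27 effectors Sytl4 (0.63 ± 0.09, adjusted p = 0.0132) and Sytl5 (0.50 ± 0.08), the ESCRT-III genes Chmp2a (0.40), Chmp3 (0.35), Chmp4c (0.36) and Chmp5 (0.34), the ESCRT-I gene Vps37d (0.40), the lipid enzymes Sgms2 (0.41) and Asah1 (0.45), and Rab31 (0.81 ± 0.08, adjusted p = 0.00735). Called lower were Sytl1 (-0.67 ± 0.07, adjusted p = 0.00863), Vps37c (-0.65), Ubap1 (-0.36), Smpd2 (-0.49), Rab5a (-0.64) and Rab11b (-0.38, adjusted p = 0.0284). Rab27a thus stood beside Sytl4 and Sytl5 on the higher side, while Sytl1 lay on the lower side, and Rab11a and Rab11b were called in opposite directions. In voom on the reads 14 of the 58 genes were called higher and 11 lower, beside 21.6% and 22% of all genes compared. After removal of the GC curve 16 were called higher and 13 lower, beside 20.7% and 23.7%. With genes of low level kept in limma, only 217 of 29257 genes were called higher and 374 lower. As for Rab27a and Pdcd6ip, acinar, beta, delta, endothelial and the further marker shares named above moved with the number, and their part was not tested.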

How the data were processed

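Islet RNA of 2 transgenic and 2 wild-type samples was grouped by the genotype in the labels. The labels' protocols give Trizol extraction and an Illumina TruSeq RNA kit, and HTSeq 0.6.0 and GRCm38 are named in the submitters' processing notes. Neither the aligner, the annotation release nor the use of strand is stated there. The deposited file gives FPKM and a length per gene. With the treatment of shared exons and the use of strand not stated, overlapping genes, antisense ones included, may lack reads or hold each other's. Of 176 protein-coding genes with at least 95% of exon bases shared on the same strand, 1 reached 1 FPKM in 2 libraries.

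FPKM times length came to whole multiples of 1 step per library, within 0.001, for 100% of values above 0, and these were taken as reads. The step gives totals 1.09, 0.970, 1.01 and 0.957 times the summed reads in transgenic 1, transgenic 2, wild type 1 and wild type 2, so the FPKM hold a further factor per library. The factors of TMM scaling, an alternative listed below, were close to these, at 1.09, 0.971, 0.991 and 0.952 in the same order. That alternative therefore nearly repeats the main fit. A read on 1 kilobase is worth 0.0386 to 0.0476 FPKM.

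Genes with FPKM of at least 1 in 2 libraries (12716) were compared with limma 3.58.1 in R 4.3.3 (trend) on log2(FPKM + 1), 2-sided, with Benjamini-Hochberg adjustment and a threshold of 0.05. Such fold changes understate those of low genes. Genotype was the only term, or genotype and library number for the difference between numbers. Alternatives were a replicate block, a pseudocount of 0.1, no filter, hand-computed TMM scaling, totals without Ins1, Ins2 and Iapp (added after seeing the data), each library left out, and voom on the reads with and without a GC curve (lowess, span 0.3). For the difference between numbers, the GC curve too was added after seeing the data. The fits were also run on simulated counts. These held no difference between library numbers and larger changes than any estimated for the exosome genes. That run therefore does not tell how the fits behave on these libraries. Exon overlaps, GC content and 3′ UTRs came from GENCODE M21 on GRCm38, in which 54495 of 54532 identifiers were found, 53585 of them at the same coordinates. Binomial intervals and limits for 0 reads reflect counting error alone, because reads lacking molecular identifiers may be copies of 1 molecule.

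The genes and lists were chosen with earlier results of these data known. Of each list the text names the 2 genes of smallest p between genotypes, any gene called, and the highest and lowest by mean FPKM.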

Additional observations from a re-analysis of the deposited data

How the results depend on the processing

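None of the 8 genes was called between genotypes under any of the 12 alternatives, including the replicate block in limma (0 called) and in voom (0 called). Libraries of the same number deviated together (r = 0.775 across genes, necessarily equal for both numbers with 2 libraries a group), but the labels do not say that a number marks a shared source. Of the wider pathway 1 gene was called under voom with the replicate block, Sytl1 at 0.43 ± 0.11 (adjusted p = 0.0200), where 238 of all 12716 genes (1.87%) were called, and none once the GC curve was removed (adjusted p = 0.522), where 111 (0.873%) were. Unadjusted p under 0.05 were counted for 1 of the 8 genes, Smpd3 (0.0209), 5 of the 58 others and 1360 of all genes in limma with the replicate block, and for Smpd3 (0.0044), 12 of 58 and 2040 of all in voom with it. Once the GC curve was removed from that voom fit, the unadjusted p of Smpd3 was 0.0796. There 0 of the 8 genes, 3 of the 58 others and 1055 of all genes were under 0.05. Smpd3 had adjusted p from 0.108 (voom with the replicate block) to 1.00. Leaving out 1 library in turn gave log2 fold changes of 0.15 to 0.38 for Smpd3, -0.23 to -0.06 for Sdcbp, -0.25 to 0.11 for Rab27a and for Rab11a, -0.11 to 0.33 for Pdcd6ip, -0.031 to 0.073 for Tsg101, -0.0496 to 0.11 for Vps4a and -0.14 to 0.087 for Vps4b. Without transgenic 1 the sign turned for 6 of 8 genes and without wild type 2 for 5 of 8. Without transgenic 2 or without wild type 1 it turned for 0 of 8. These fits had genotype as the only term, so the library left out also made the numbers unequal between the genotypes. Rab27a, Rab11a, Pdcd6ip and Tsg101 turned in both cases, although each kept the same sign within number 1 and within number 2. With the replicate block and the GC curve removed, the sign turned for Vps4a (-0.015), Vps4b (0.0816) and Rab11a (0.0755) and Sdcbp came to -0.032, and the cause was not tested.

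Between numbers, 3 genes were called in limma and 0 without the filter on low values, with adjusted p of 0.0836 for Rab27a, 0.0780 for Rab11a and 0.0818 for Pdcd6ip, and the cause was not tested. Vps4a turned to 0.00029 with totals without the insulin genes, and ranged from -0.16 to 0.026 with 1 library left out, a fit with no residual degrees of freedom and so no calls. Such a fit returns the difference within the genotype that kept both libraries. The values therefore repeat those given above for the transgenic (-0.16) and wild-type (0.026) libraries. The shares of Rab27b and Vps4b on reads in place of FPKM were 0.558% and 65.4%, since reads also count gene length. Depth limits Rab27b, at 26 to 32 reads a library, and 2 libraries a group limit the rest.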

Other observations

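The split of Rab11 messenger between its paralogs was looked at after the values were seen. Rab11b made up 34.8% of the summed FPKM of Rab11a and Rab11b in transgenic 1 and 23.1% in transgenic 2, against 31.5% in wild type 1 and 22.1% in wild type 2. The share was lower in number 2 of both genotypes, and within each number the transgenic library had the slightly higher share. No test was made.

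Of the other exosome pathway genes, 11 carried a miR-29 seed match in the longest 3′ UTR, and 8 of these were compared. Their log2 fold changes were above 0 for 5 and below 0 for 3, from -0.13 to 0.33 with a median of 0.02, against 0.01 over all genes, and none was called in limma. In both numbers the transgenic library was higher for 1 of them, Vps37c at 0.33 ± 0.33, and lower for 3, Vps36, Syncrip and Vamp3. Sgms2, a sphingomyelin synthase and the carrier whose match is followed by an A, was at 0.08 ± 0.24. Syncrip and Vamp3 carried 2 matches each. Syncrip had 5.96 FPKM in transgenic 1 and 6.03 FPKM in transgenic 2, against 6.47 FPKM in wild type 1 and 6.68 FPKM in wild type 2. Vamp3, a fusion protein of the endosome, had 20.6 FPKM in transgenic 1 and 17.9 FPKM in transgenic 2, against 21.5 FPKM in wild type 1 and 18.8 FPKM in wild type 2. The log2 fold change was -0.11 ± 0.12 for Syncrip and -0.06 ± 0.16 for Vamp3. Of all genes compared, 27.4% were lower in the transgenic library of both numbers and 33.5% higher.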
